A study of Homo sapiens with 16 samples.

Results

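The E2F family and its DP partners were followed through p53 activation and RFX7 knockdown in U2OS cells, a human osteosarcoma line. The 10 genes were taken by symbol, E2F1 to E2F8, TFDP1 and TFDP2, and all 10 were among the 19344 genes present in every one of the authors' 4 deposited tables, of 23396 genes in any table. They were read in 4 classes: the activators E2F1, E2F2 and E2F3, the group of E2F4, E2F5 and E2F6, the atypical E2F7 and E2F8, and the partners TFDP1 and TFDP2. Poly(A) RNA was sequenced from 16 libraries in 4 groups of 4: control siRNA (siControl) with DMSO, siControl with Nutlin-3a, siRNA against the transcription factor RFX7 (siRFX7) with DMSO, and siRFX7 with Nutlin-3a. Nutlin-3a, which keeps MDM2 from binding p53 and so stabilises p53, was given at 10 µM for 24 h, and DMSO is its solvent. All groups received an siRNA, so no group is untransfected. In bulk RNA, a lower level in every cell and fewer cells with the transcript cannot be told apart. The deposited tables compare 2 groups of 4 libraries each and hold no value of a single library, so errors are the authors' standard errors (SE) and the spread over libraries cannot be shown. Nothing in the labels says that the 4 libraries of a group came from separate cultures, so p-values measure only the spread between these libraries.

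E2F factors bind DNA next to genes of DNA synthesis and cell division. E2F1 to E2F6 do so as dimers with a DP protein, whereas E2F7 and E2F8 carry their own pair of DNA-binding domains and need no DP partner. The retinoblastoma protein RB1 holds the activators inactive until cyclin-dependent kinases release them. p53 induces CDKN1A (p21), an inhibitor of those kinases. E2F4 and E2F5 act mainly with the pocket proteins RBL1 and RBL2 as repressors, E2F6 represses without a pocket protein as part of a Polycomb complex, and E2F7 and E2F8 repress, among others, the activator genes. E2F7 is also known as a direct target of p53.

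The sequences upstream of the start sites are shown for the activators and for E2F7, the members whose values are compared most below; they are a description of letters, not of the responses. RefSeq windows of 300 bases (250 before and 50 after a start, GRCh38.p14) matched 8 of the 10 genes with 11 windows; E2F5 and E2F8 were not matched. The windows were searched on both strands for the E2F letters TTTCCCGC, TTTCGCGC, TTTGCCGC and TTTGGCGC, found in 3.31% of all 35116 windows, and for the shorter TTTCGCG, found in 1.32%. These searches overlap, since TTTCGCGC holds TTTCGCG. E2F1, E2F2, the upstream start of E2F3 and TFDP1 held both kinds of match, and E2F4, E2F6, E2F7 and TFDP2 held neither. Capitals mark the matches in the 100 bases before the start, 5′ to 3′ on the gene's strand, for the 3 activators:

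E2F1, chr20:33686386-33686485, minus strand: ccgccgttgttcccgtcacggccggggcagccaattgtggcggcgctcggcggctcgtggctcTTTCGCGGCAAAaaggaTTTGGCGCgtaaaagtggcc

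E2F2, chr1:23531234-23531333, minus strand: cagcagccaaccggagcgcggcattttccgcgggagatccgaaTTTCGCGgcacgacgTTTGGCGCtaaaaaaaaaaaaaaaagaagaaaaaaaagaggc

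E2F3, chr6:20401779-20401878, plus strand: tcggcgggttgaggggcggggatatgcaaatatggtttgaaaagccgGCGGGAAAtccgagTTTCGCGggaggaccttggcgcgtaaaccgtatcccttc

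In E2F1 and E2F2 a TTTCGCG starts at positions -37 and -57 from the start site and a TTTGGCGC follows at -20 and -42. The first capital block of E2F1 holds TTTCGCG and, read on the other strand, TTTGCCGC, which overlap. In E2F3 the TTTCGCG starts at -39, and the letters at -53 are TTTCCCGC on the other strand. The upstream 250 bases of E2F7 are shown for contrast, with capitals marking CCAAT, the core letters of NF-Y sites, and the X-box half-site letters GTTGCC that RFX factors are known to bind, both read on the other strand:

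E2F7, chr12:77065570-77065819, minus strand: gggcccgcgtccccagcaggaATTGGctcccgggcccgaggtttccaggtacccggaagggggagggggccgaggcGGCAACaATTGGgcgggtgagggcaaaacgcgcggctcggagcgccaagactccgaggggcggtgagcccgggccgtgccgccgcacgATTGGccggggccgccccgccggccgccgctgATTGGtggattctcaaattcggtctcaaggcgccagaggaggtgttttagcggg

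E2F7 held 4 CCAAT letters and E2F3 held 4, E2F1 held 3; 3.26% of all windows held 3 or more. Half-site letters GTTGCC or GTTGCT were in 23.1% of all windows and, of the genes here, in those of E2F6 and E2F7. The p53 half-site consensus was in 6.63% of all windows and, of these genes, in 1 window of TFDP2. These are matches of letters in a window, not measured binding.

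The direction of each deposited comparison was settled from RFX7, CDKN1A and MDM2, so the signs of these 3 genes are no check of the labels. In the authors' deposited tables RFX7 stood at 18.6% of its siControl level with siRFX7 under DMSO and at 19.4% under Nutlin-3a. CDKN1A rose 9.46-fold with Nutlin-3a in siControl and 7.88-fold in siRFX7, and MDM2 7.41-fold and 6.78-fold, in the authors' deposited tables. Base means, the mean normalised read counts per gene, added up to between 27900000 and 35300000 per table. Osteoblast and mesenchymal markers were present, with base means of 39039 for COL1A1 and 432 for RUNX2 in the authors' deposited table for Nutlin-3a in siControl, although COL1A2 was at 13.2. The leukocyte markers PTPRC and CD14 were at 5.21 and 3.39 in that authors' deposited table, and the keratin gene KRT8 was at 24067.

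Levels of the members were set per kilobase of exon, within a group. In siControl cells with DMSO, TFDP1 was highest at 2218 normalised counts per kb, followed by E2F1 at 1213, E2F4 at 1170 and E2F7 at 516. E2F3 (265), E2F2 (241), E2F8 (206), E2F6 (135), TFDP2 (107) and E2F5 (15.2) normalised counts per kb came after. These levels were computed from base mean and log2 fold change and carry no error of their own, so neighbours as close as E2F1 and E2F4, or E2F3 and E2F2, are not ordered: with the longest coding transcript as the length, E2F4 stood at 1999 and E2F1 at 1213. TFDP1 was 20.8 times as high as TFDP2 per kb in these cells. E2F5 is the least certain gene, because 969 bases (16.3%) of its exons overlap exons of C8orf59 on the other strand, a gene with a base mean of 1114 in the authors' deposited table for Nutlin-3a in siControl. The kit was stranded, but the strand setting of the counting is not given in the sources used here. Of the processed pseudogenes of E2F3 and E2F6, 4 were listed, with base means of at most 36.6 in the authors' deposited tables.

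The response to p53 activation was read from Nutlin-3a over DMSO. In siControl, E2F1, E2F2, E2F8, TFDP1 and E2F4 fell and E2F7 rose, while E2F3, E2F5, E2F6 and TFDP2 did not pass the authors' adjusted p of 0.05. So 5 of 10 members were lower and 1 was higher, where 19.6% of all 23353 genes in the authors' deposited table were lower and 18.3% higher. Among the 13525 genes whose base mean reached 100, 56.3% were called in either direction, so the share of members called (6 of 10) is near that of well-expressed genes. The falls of E2F1, E2F2 and E2F8 were large: 0% of those 13525 genes had a lower log2 fold change than E2F2, 0.0148% than E2F8 and 0.155% than E2F1. The median log2 fold change of the 10 members was -0.16, against 0.01 over all genes.

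**Figure D1:**
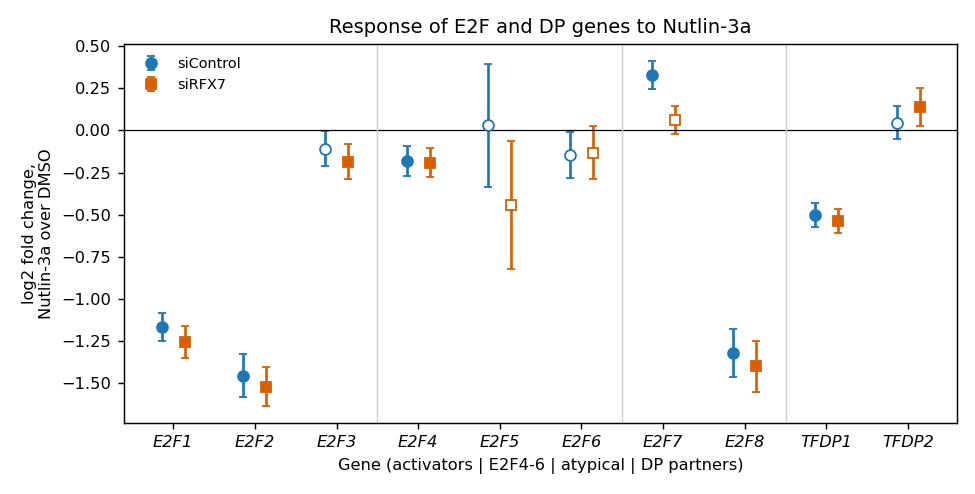
Log2 fold change of each gene with Nutlin-3a over DMSO (vertical axis) in siControl (circles) and siRFX7 (squares), with 95% intervals from the SE; filled symbols passed the authors' adjusted p of 0.05 and open ones did not. E2F1, E2F2 and E2F8 lie below -1 with both siRNAs, and the symbols of E2F7 are at 0.33 with siControl and 0.06 with siRFX7.

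Within the activators, E2F1 and E2F2 fell with both siRNAs and E2F3 changed little. E2F2 (ENSG00000007968, chromosome 1, 23506430 to 23531220, minus strand, GRCh38, as are all gene positions here, from GENCODE 29) had computed levels of 1315 normalised counts with DMSO and 480 with Nutlin-3a in siControl. Its log2 fold change in the authors' deposited table was -1.45 ± 0.07 (SE; adjusted p 2.73e-106), which leaves 36.5% of the DMSO level. Such levels are scaled within a deposited table, so those of siControl and siRFX7 are not comparable, here or below. In siRFX7 E2F2 went from 1626 to 568 normalised counts, and its change in the authors' deposited table was -1.52 ± 0.06 (SE; adjusted p 2.29e-150). The DMSO and Nutlin-3a levels were thus far apart with either siRNA, with the 95% intervals of the change reaching no nearer to 0 than -1.32 and -1.40.

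E2F1 (ENSG00000101412, chromosome 20, 33675683 to 33686404, minus strand), the founding activator, went from 3036 to 1352 normalised counts in siControl and from 2440 to 1023 in siRFX7. The authors' deposited tables gave log2 fold changes of -1.17 ± 0.04 (SE; adjusted p 1.48e-161) and -1.25 ± 0.05 (SE; adjusted p 7.21e-146). The fall left 44.5% of the DMSO level in siControl and 41.9% in siRFX7. E2F3 (ENSG00000112242, chromosome 6, 20401906 to 20493715, plus strand) changed by -0.11 ± 0.05 (SE; adjusted p 0.0955) in siControl and fell by 0.19 ± 0.05 (SE; adjusted p 0.00184) in siRFX7, by the authors' deposited tables. Its difference between siRNAs was -0.08 ± 0.08 and did not pass, so the 2 results for E2F3 are not shown to differ. The log2 fold change of E2F3 lay outside the 95% intervals of E2F1 and E2F2 in both deposited tables. The upstream stretches of all 3 activators hold TTTCGCG letters, whereas the other window of E2F3 holds no E2F letters. Any part of these letters in the responses was not tested.

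The atypical factors moved in opposite directions. E2F8 (ENSG00000129173, chromosome 11, 19224063 to 19241620, minus strand) went from 854 to 342 normalised counts in siControl and from 816 to 309 in siRFX7. Its log2 fold changes in the authors' deposited tables were -1.32 ± 0.07 (SE; adjusted p 5.18e-71) and -1.40 ± 0.08 (SE; adjusted p 8.53e-73). E2F7 (ENSG00000165891, chromosome 12, 77021247 to 77065580, minus strand) went from 3250 to 4076 normalised counts in siControl, a log2 fold change of 0.33 ± 0.04 (SE; adjusted p 1.58e-13) in the authors' deposited table. With siRFX7 the same gene went from 2261 to 2357 on the scale of the other table. Its change in that authors' deposited table was 0.06 ± 0.04 (SE; adjusted p 0.292). The rise of E2F7, to 1.25 times its DMSO level, is small beside that of CDKN1A and MDM2, and 87.0% of genes whose base mean reached 100 had a lower log2 fold change.

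In siControl the ratio of E2F7 to E2F8 per kb therefore went from 2.50 with DMSO to 7.82 with Nutlin-3a, and in siRFX7 from 1.82 to 5.01. The summed activators per kb stood at 2.38 times the summed atypical factors in siControl with DMSO and at 1.20 times with Nutlin-3a. In siRFX7 these ratios were 2.74 and 1.63. E2F1 was 2.35 times as high as E2F7 per kb with DMSO and 0.835 times with Nutlin-3a in siControl. In siRFX7 it went from 2.72 to 1.09 times, or to 0.995 times with the longest coding transcript as the length, so the order of E2F1 and E2F7 there is not settled.

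In the group of E2F4, E2F5 and E2F6, E2F4 fell slightly and the others did not pass. E2F4 (ENSG00000205250, chromosome 16, 67192169 to 67198918, plus strand), the main partner of the pocket proteins in repression, fell by 0.18 ± 0.04 (SE; adjusted p 0.00019) in siControl and by 0.19 ± 0.04 (SE; adjusted p 4.71e-05) in siRFX7 in the authors' deposited tables. E2F6 (ENSG00000169016, chromosome 2, 11444375 to 11466177, minus strand) changed by -0.15 ± 0.07 (SE; adjusted p 0.0869) and -0.13 ± 0.08 (SE; adjusted p 0.209) there, and neither passed. E2F5 (ENSG00000133740, chromosome 8, 85177225 to 85217158, plus strand) was at 0.03 ± 0.19 (SE; adjusted p 0.933) and -0.44 ± 0.19 (SE; adjusted p 0.0576) in the authors' deposited tables. With base means of 91.2 and 64.4, its 95% interval in siControl ran from -0.33 to 0.39, so a change of moderate size could not be seen at this depth.

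Of the DP partners, the more abundant one fell. TFDP1 (ENSG00000198176, chromosome 13, 113584721 to 113641470, plus strand) went from 8297 to 5867 normalised counts in siControl, with log2 fold changes of -0.50 ± 0.04 (SE; adjusted p 9.72e-42) in siControl and -0.54 ± 0.04 (SE; adjusted p 2.33e-45) in siRFX7 in the authors' deposited tables. TFDP2 (ENSG00000114126, chromosome 3, 141944428 to 142149544, minus strand) was at 0.04 ± 0.05 (SE; adjusted p 0.549) in siControl in the authors' deposited table. In siRFX7 it rose by 0.14 ± 0.06 (SE; adjusted p 0.0442) in the authors' deposited table, a call lost at an adjusted p of 0.01. Counting all members in siRFX7, 6 were lower and 1 higher, against 20.3% and 18.7% of all 21382 genes in the authors' deposited table, and 56.3% of the 12867 genes whose base mean reached 100 were called in either direction.

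Several E2F genes were higher with the knockdown, E2F2 most. Each siRFX7 table shares libraries with each Nutlin-3a table, so their values are given side by side only. Under DMSO, siRFX7 raised E2F2, E2F8, E2F3, TFDP1 and E2F4 and lowered E2F7, and the same 6 genes were called with the same signs under Nutlin-3a, in tables that share no library. That makes 5 of 10 higher and 1 lower under each treatment. In the authors' deposited table for DMSO 19.9% of 19511 genes were higher and 17.5% lower, and 49.7% of those whose base mean reached 100 were called. In the authors' deposited table for Nutlin-3a the shares were 17.2% higher and 15.4% lower of 20335 genes, and 45.3% called whose base mean reached 100. The 10 members had a median of 0.16 with DMSO and 0.14 with Nutlin-3a, against -0.0024 and -0.0053 over all genes.

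**Figure D2:**
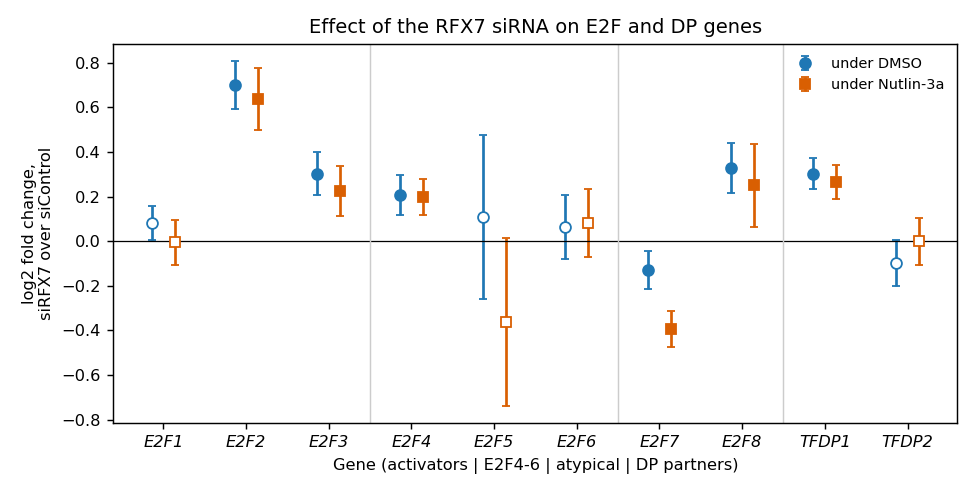
Log2 fold change of each gene with siRFX7 over siControl (vertical axis) under DMSO (circles) and Nutlin-3a (squares), with 95% intervals from the SE; filled symbols passed the authors' adjusted p of 0.05. E2F2 is the highest under both treatments, at 0.70 and 0.64, and E2F7 moves from -0.13 to -0.39.

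E2F2 rose by 0.70 ± 0.05 (SE; adjusted p 9.31e-36) under DMSO and by 0.64 ± 0.07 (SE; adjusted p 7.92e-18) with Nutlin-3a by the authors' deposited tables, or to 1.62 and 1.56 times the siControl level. The DMSO change was above that of 98.7% of genes whose base mean reached 100. E2F1 was at 0.08 ± 0.04 (SE; adjusted p 0.0959) and -0.0054 ± 0.05 (SE; adjusted p 0.957) in the authors' deposited tables, so the activators did not move alike: the 95% interval of E2F1 under DMSO ended at 0.16 and that of E2F2 began at 0.59. E2F3 rose by 0.30 ± 0.05 (SE; adjusted p 8.01e-09) and 0.23 ± 0.06 (SE; adjusted p 0.000424) in the same authors' deposited tables.

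TFDP1 rose by 0.30 ± 0.04 (SE; adjusted p 5.72e-16) under DMSO and 0.27 ± 0.04 (SE; adjusted p 6.74e-11) with Nutlin-3a by the authors' deposited tables. E2F8 rose by 0.33 ± 0.06 (SE; adjusted p 1.53e-07) and 0.25 ± 0.09 (SE; adjusted p 0.0277) there, the latter a call lost at an adjusted p of 0.01, and E2F4 by 0.21 ± 0.05 (SE; adjusted p 3.47e-05) and 0.20 ± 0.04 (SE; adjusted p 1.79e-05) in the authors' deposited tables. E2F5 (0.11 ± 0.19 and -0.36 ± 0.19 SE), E2F6 (0.06 ± 0.07 and 0.08 ± 0.08 SE) and TFDP2 (-0.10 ± 0.05 and -0.00069 ± 0.05 SE) did not pass under either treatment in the authors' deposited tables.

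E2F7 was the one member called lower with siRFX7. By the authors' deposited tables it fell by 0.13 ± 0.04 (SE; adjusted p 0.0122) with DMSO, a call lost at an adjusted p of 0.01, and by 0.39 ± 0.04 (SE; adjusted p 3.92e-20) with Nutlin-3a. Under Nutlin-3a this left 76.1% of the siControl level, and 6.05% of genes whose base mean reached 100 were lower. The 95% intervals, -0.21 to -0.04 and -0.47 to -0.31, do not overlap.

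E2F7 is also the only one of the 10 members with the letters GTATCTA in its annotated 3′ UTR. These letters had been chosen earlier from the fold changes analysed here, so the lower values of the genes that hold them follow from that choice and are a description. Among genes with an annotated 3′ UTR whose base mean reached 100, the median log2 fold change with siRFX7 under DMSO was -0.14 for the 1005 genes with the letters and 0.03 for the 10301 without. Under Nutlin-3a these medians were -0.10 and 0.02, over 1016 and 10354 genes. For the Nutlin-3a response in siRFX7 minus that in siControl they were 0.03 and -0.0021, over 1012 and 10354 genes. The siRNA sequence is not given in the sources used here, and the part of this feature in the values of E2F7 was not tested.

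Whether the Nutlin-3a response of a member differed between siRNAs was tested by subtracting the siControl response from the siRFX7 response. All 21339 genes in both deposited tables were used (two-sided normal test, Benjamini-Hochberg adjustment). E2F7 was the only one of the 10 members called, with a lower response in siRFX7. Of all genes, 0.764% were called lower and 0.173% higher, and 1.45% were called among those whose base mean reached 100. For E2F7 the difference was -0.27 ± 0.06 (SE), with a 95% interval of -0.39 to -0.15 and an adjusted p of 0.00254. That is the rise of 0.33 in siControl against 0.06 in siRFX7. Taken from the siRFX7 tables instead, the difference was -0.27 (adjusted p 0.0022). That is the same contrast of the same 16 libraries, so it is no separate evidence. With the Holm adjustment the call was lost (adjusted p 0.228); over all alternatives the adjusted p ran from 0.00158 to 0.228.

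The other members' differences did not pass, and their intervals bound what could have been missed. For E2F1 the difference was -0.09, with a 95% interval of -0.21 to 0.04. Those of E2F2 (-0.24 to 0.11), E2F8 (-0.29 to 0.13), E2F3 (-0.22 to 0.07) and TFDP1 (-0.14 to 0.06) all included 0. E2F4 had the interval -0.13 to 0.11, E2F6 -0.20 to 0.23 and TFDP2 -0.06 to 0.24. E2F5 had the widest, -0.997 to 0.06, which leaves room for a large difference. At an unadjusted p under 0.05, E2F7 was the single member of 10, beside 1349 of all 21339 genes, so this count is no result about the members.

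Put on 1 scale, with siControl and DMSO at 100%, the 4 groups can be set side by side. E2F2 stood at 36.5% in siControl with Nutlin-3a, 162% in siRFX7 with DMSO and 56.7% in siRFX7 with Nutlin-3a. E2F8 followed at 40.1%, 126% and 47.6%, and E2F1 at 44.5%, 106% and 44.3%. E2F7 was at 125%, 91.5% and 95.4%: its highest value was in siControl with Nutlin-3a. TFDP1 was at 70.7%, 123% and 84.9%. The last value of each gene was chained through siRFX7 with DMSO; chained through siControl with Nutlin-3a, E2F2 came to 56.8% and E2F7 to 95.5%.

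**Figure D3:**
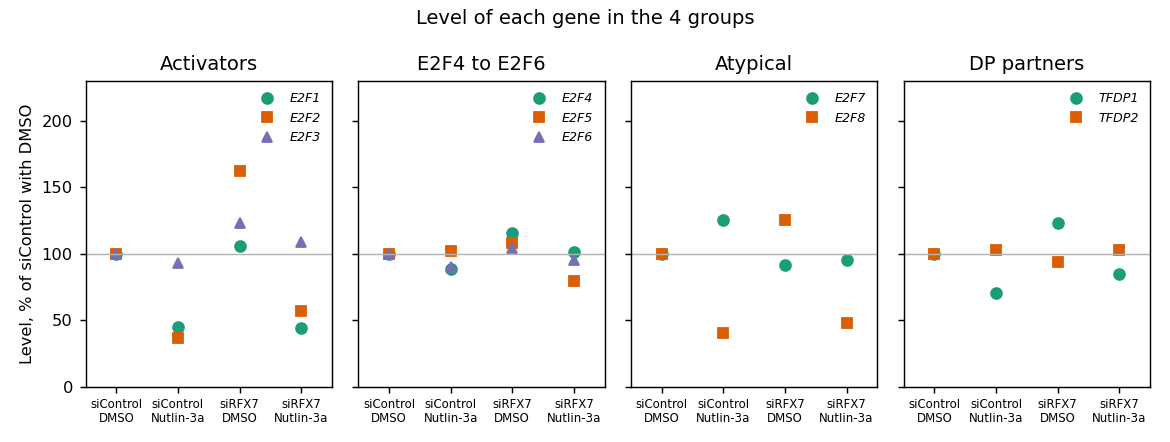
Level of each gene as a percentage of siControl with DMSO (vertical axis) in the 4 groups, by class, computed from the authors' log2 fold changes; points carry no error because the tables hold no single library. E2F1, E2F2 and E2F8 lie below 60% in both Nutlin-3a groups, and E2F7 reaches 125% in siControl with Nutlin-3a.

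Genes with the most similar course were sought among 12747 genes whose base mean reached 100 in every table, by the distance over the 4 deposited log2 fold changes. These values come from 4 groups, so only 3 are independent, and the likeness is a description. Nearest to E2F1 were ATAD2 (0.03), ERCC6L (0.06) and GINS2 (0.08). Near E2F8 were WDR76 (0.12) and CNTNAP2 (0.19). E2F2 had no close neighbour: E2F8 itself came first at 0.57, then CNTNAP2 at 0.58 and WDR76 at 0.60. For E2F7 they were SOD2 (0.03), KCTD21-AS1 (0.04) and PNP (0.05), and KCTD21-AS1 is an antisense gene whose reads depend on the strand setting.

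The rest of the pathway gives the setting of these changes, starting with the genes E2F factors are known to activate at the start of S phase. Beside the count of each list stands the share among all genes whose base mean reached 100. With Nutlin-3a, 56.3% of those were called in either direction, in siControl and in siRFX7. Of 34 genes that E2F factors are known to activate, 33 fell with Nutlin-3a in siControl and 34 of 34 in siRFX7, with medians of -1.02 and -1.16 in the authors' deposited tables. The deepest were CDC45 (-1.27 ± 0.05 SE), a part of the replicative helicase, and its loading factor MCM10 (-1.25 ± 0.05 SE) in the authors' deposited table for siControl. The smallest called falls there were TYMS (-0.25 ± 0.04 SE), thymidylate synthase, and RRM1 (-0.64 ± 0.04 SE), a subunit of ribonucleotide reductase. The exception was PCNA, the polymerase clamp and itself a known p53 target, at -0.04 ± 0.04 (SE; adjusted p 0.43) in the authors' deposited table, named here after its value was seen. With siRFX7, 6 of the 34 rose and 10 fell under DMSO, and 1 rose and 15 fell with Nutlin-3a by the authors' deposited tables. The shares called in either direction are near the 49.7% and 45.3% of all genes whose base mean reached 100. By direction, the calls with Nutlin-3a were mostly lower, where 17.2% of all 20335 genes were higher and 15.4% lower. The list medians were -0.03 under DMSO and -0.14 with Nutlin-3a, against -0.0024 and -0.0053 over all genes.

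**Figure D4:**
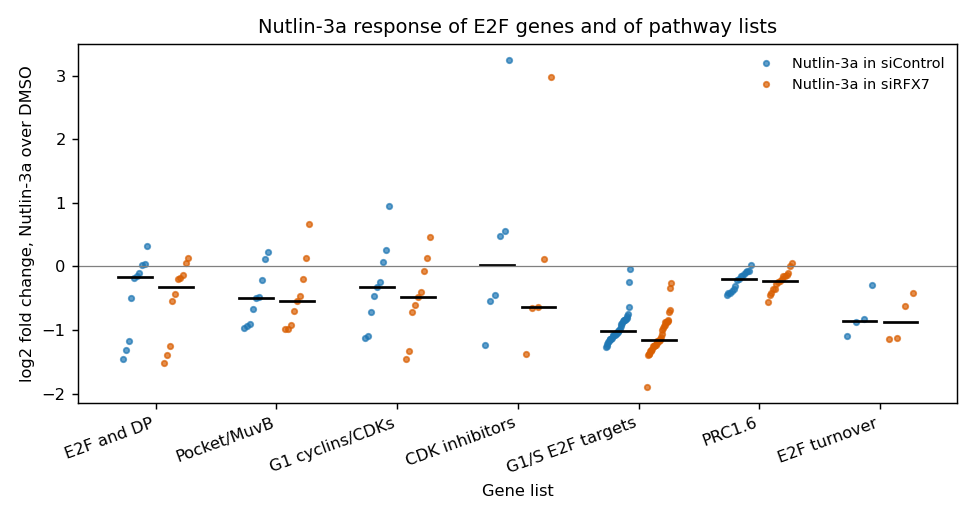
Log2 fold change with Nutlin-3a over DMSO (vertical axis) for the E2F and DP genes and the 6 pathway lists; each point is a gene, in siControl (blue) and siRFX7 (orange), and black bars are medians. The G1/S targets lie lowest, with medians of -1.02 and -1.16. The points near 3 are those of CDKN1A, at 3.24 in siControl and 2.98 in siRFX7.

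The genes of the pocket proteins, the MuvB subunits and MYBL2 split. Of 9 genes, 7 fell and 1 rose in siControl, and 7 fell and 2 rose in siRFX7 in the authors' deposited tables. RBL1 (p107), named after its value was seen, fell by 0.90 ± 0.06 (SE) in siControl in the authors' deposited table. RBL2 (p130) rose by 0.22 ± 0.04 (SE) and RB1 fell by 0.22 ± 0.05 (SE) in siControl in the authors' deposited table. MYBL2 (B-MYB), which replaces E2F4 and p130 on MuvB in dividing cells, fell by 0.97 ± 0.04 (SE), and the MuvB subunit LIN9 by 0.94 ± 0.07 (SE) in the same authors' deposited table. No difference between siRNAs passed for these 9 genes in the normal test over all genes. The largest in size, that of LIN37, was 0.55 ± 0.27 (adjusted p 0.77).

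Among the 9 G1 cyclins and kinases, 6 fell and 2 rose in siControl in the authors' deposited table. The risers were CCND2 (0.95 ± 0.04 SE) and CCND1 (0.26 ± 0.04 SE), D cyclins that drive RB1 phosphorylation. Another D cyclin, CCND3, named after its value was seen, fell (-0.46 ± 0.05 SE). The deepest falls were those of cyclin E2, CCNE2 (-1.12 ± 0.09 SE), and the phosphatase gene CDC25A (-1.09 ± 0.05 SE) in the authors' deposited table. Of the 6 CDK inhibitor genes present in siControl, CDKN1A (3.24 ± 0.04 SE) and CDKN1C (0.55 ± 0.19 SE) rose, and CDKN2C (-1.24 ± 0.05 SE), CDKN2D (-0.54 ± 0.11 SE) and 1 other fell in the authors' deposited table. CDKN2A was not analysed here.

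PRC1.6, the Polycomb complex of E2F6, shifted little: 9 of 15 genes fell and 0 rose in siControl, with a median of -0.20 in the authors' deposited table. The share called is near the 56.3% called in either direction among all genes whose base mean reached 100, but every call here was a fall. Over all 23353 genes 19.6% were lower and 18.3% higher. The deepest were CBX1 (-0.45 ± 0.03 SE) and PCGF6 (-0.43 ± 0.08 SE), and the mildest called falls were EHMT1 (-0.15 ± 0.05 SE) and HDAC1 (-0.20 ± 0.04 SE) in that authors' deposited table. All 4 genes of E2F turnover fell in siControl. They were FBXO5 (-1.09 ± 0.05 SE), an inhibitor of the anaphase-promoting complex, CCNF (-0.88 ± 0.04 SE), cyclin F, a ubiquitin ligase subunit that acts on E2F proteins, SKP2 (-0.82 ± 0.05 SE) and FZR1 (-0.30 ± 0.05 SE) in the authors' deposited table. Of the 76 genes in these 6 lists with both responses, 6 had a response that differed between siRNAs, all lower in siRFX7. Over all 21339 genes 200 differed, of which 163 were lower, so the lower direction was also the common one among all genes.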

How the data were processed

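Poly(A) libraries were made with a stranded kit, per the labels' protocols. The submitters' processing notes name bcl2fastq 2.19.1.403, Trimmomatic 0.39, FastQC 0.11.9, cutadapt 2.10, SAMtools 1.10, Picard, featureCounts 1.6.5, DESeq2 1.20.0 and the build hg38; the aligner, annotation and strand setting are not given in the sources used here. The authors deposited 4 DESeq2 tables. The base mean is a signal that the authors computed as a mean normalised read count. Log2 fold changes and SEs are deposited values. The Wald statistic, a deposited score, equals their ratio, and the deposited adjusted p-value is the Benjamini-Hochberg adjustment over the genes of a table. Direction was settled from RFX7, CDKN1A and MDM2.

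A deposited adjusted p-value under 0.05 made a call, and 95% intervals are normal intervals from the SE. The difference of responses used the sum of squared SEs of tables that share no library, and was tested on simulated data. Nutlin-3a in siControl shares libraries with both siRFX7 tables, as does Nutlin-3a in siRFX7. Group levels were computed as 2 x base mean / (1 + fold change) for the DMSO group. Size factors differ between tables (levels of a group differed 0.846 to 1.18 times), so levels are compared within a table only. Exon lengths and positions came from GENCODE 29, where 99.9% of 23396 identifiers matched; promoter windows came from RefSeq, GRCh38.p14.

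Named genes were all members, plus the 2 highest and 2 lowest called genes per list with Nutlin-3a in siControl, RFX7 and MDM2, and 3 nearest genes each for E2F1, E2F2, E2F7 and E2F8, of which 1 is not reported here. The members and lists were chosen with earlier results of these data known. The motif letters were chosen with the windows in view. Alternatives were a stricter threshold, a base mean filter, centring, Holm adjustment, a minimum size, the other route to the difference, a rescaled statistic and another exon length. Python 3.11.15, pandas 2.3.3 and scipy 1.17.1 were used.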

Additional observations from a re-analysis of the deposited data

Results flagged for a closer look

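By the test of the difference itself over 21339 genes, the response to Nutlin-3a differed between siRNAs for E2F7 and 6 pathway genes. E2F7 was the only member (-0.27 on the log2 scale), and its call was lost with the Holm adjustment. The 6 genes of the pathway lists were CCND1 (-0.33), CCNE1 (-0.28), CDKN1A (-0.26), CCNF (-0.25), PCNA (-0.22) and MCM2 (-0.20), with siRFX7 minus siControl in each case. CCND1, like E2F7, rose in siControl (0.26 ± 0.04 SE) and did not pass in siRFX7 (-0.08 ± 0.04 SE) in the authors' deposited tables. CCNE1 fell in both (-0.33 and -0.61 in the authors' deposited tables), from a level under DMSO that siRFX7 had raised by 0.82 ± 0.04 (SE). CDKN1A was likewise higher under DMSO with siRFX7, by 0.60 ± 0.04 (SE) in the authors' deposited table. Under Nutlin-3a CDKN1A (0.33 ± 0.04 SE) and CCNE1 (0.54 ± 0.04 SE) were also higher with siRFX7 in the authors' deposited table. CCND1 (-0.36 ± 0.03 SE), PCNA (-0.30 ± 0.04 SE) and MCM2 (-0.16 ± 0.04 SE) were lower there, and CCNF did not pass. PCNA was at -0.04 in siControl and fell by 0.26 ± 0.04 (SE) in siRFX7 in the authors' deposited tables.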

How the results depend on the processing

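Over 265 recomputed values of the members, 245 kept their side of the threshold and 20 lost a call. Most settings leave the log2 fold change as it is, so its direction could not change there. It could change only in the 50 centred values and the 10 from the other route to the difference, and did so in none. The other route is the same contrast of the same libraries, so little change was possible there. Centring on the median of genes whose base mean reached 100, the base mean filter, the other route and the rescaled statistic lost none. The filter did remove E2F5. The Holm adjustment lost 9 member calls, the minimum size of 0.25 lost 8 and the adjusted p of 0.01 lost 3. With Nutlin-3a in siRFX7 the members called went from 7 to 4 under Holm and to 4 with the minimum size. For the difference of the responses, members called went from 1 to 0 under Holm. Over all genes, Holm gave 4241 and 3977 called for Nutlin-3a in siControl and siRFX7, 2867 and 2448 for siRFX7 under DMSO and Nutlin-3a, and 65 for the difference of the responses, which went from 200 to 125 at an adjusted p of 0.01. The minimum size gave 4501 for siRFX7 under DMSO and 4020 under Nutlin-3a. Holm is stricter by construction.

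No paired analysis was possible because the deposited tables hold no value of a single library, and for the same reason no replicate was left out. Depth limited E2F5 most.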
